A study of Mus musculus with 12 samples.

Results

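The mitochondrial genome encodes 13 proteins, 2 ribosomal RNAs and 22 transfer RNAs, and these 37 genes were described here in embryonic mouse brain. They were chosen as every gene with a symbol starting with mt-, 1 row per Ensembl identifier, which gave 37 of the 40690 genes in the deposited count table. All 37 symbols matched GENCODE release M21 of GRCm38. The annotated nuclear gene Gm28438, a copy of a mitochondrial gene, was read beside them.

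The libraries hold polyadenylated RNA from the whole brain of 12 C57BL/6J embryos, taken at embryonic day 14.5 and forming 4 groups of 3. The RKI homozygous embryos (A1, A10 and A18) carried a human variant knocked in at both copies of the LC1 element, and their wild types were embryos A2, A9 and A16. The LC1 knockout embryos (7, 22 and 71) lacked the LC1 element, and the LC1 wild types were 6, 26 and 73. In each RKI group A10 or A9 was the female and the other embryos were male, whereas all 6 LC1 embryos were female. The labels state matching by sex and by litter without giving the litters. Each line was its own experiment, so line and anything done separately for the experiments cannot be told apart. Total gene counts were 18192984 to 26566769 per library, and all 8 neural markers were present, with Tubb3, a tubulin of young neurons, at 2411 to 3164 CPM, that is counts scaled to a common library size.

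Mitochondrial genes are transcribed from both DNA strands as long precursors that are cut mostly at the tRNAs. Most of the mRNAs receive short poly(A) tails. The proteins made from the mRNAs are subunits of the respiratory chain complexes I, III and IV and of ATP synthase, whose other subunits come from the nucleus. Pieces of mitochondrial DNA are also found copied into nuclear chromosomes. Where such a copy is identical to the mitochondrial gene, a read from either one cannot be placed on sequence alone.

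In the annotation, 7 genes on the minus strand of chromosome 1 formed such a copy, at chr1:24611535-24616197 (GRCm38), a span of 4663 bases that ran in the order of mitochondrial positions 6381 to 11043. Pairwise alignment with the annotated transcripts showed how close the copies are. Gm28661 was identical to mt-Co2 over 681 aligned bases, Gm10925 to mt-Atp6 over 678, Gm28437 to mt-Co3 over 783, Gm10222 to mt-Nd4l over 294, and Gm28439 to mt-Nd4 over 876 of its 1378 bases. Only Gm29216, the copy of the end of mt-Co1, and Gm28438, the copy of mt-Nd3, each differed at 1 aligned base. The aligned part was 483 of the 492 bases of Gm29216 and all 345 of Gm28438. The first bases of Gm29216 fell outside the alignment, so any difference there was not counted. The differences within the alignments were A1066T and T3C, counted from the start of the mitochondrial gene, with the mitochondrial base given first.

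The pairs with a difference and the identical mt-Co2 pair are shown, as 60 bases each from the GENCODE M21 transcripts (GRCm38, 5′ to 3′), because they show how closely gene and copy match. Capitals mark the differing base.
mt-Nd3, chrM:9459-9518, plus strand: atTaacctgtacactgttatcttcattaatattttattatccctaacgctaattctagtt
Gm28438, chr1:24613060-24613119, minus strand: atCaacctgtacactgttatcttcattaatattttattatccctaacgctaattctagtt
mt-Co1, chrM:6390-6449, plus strand: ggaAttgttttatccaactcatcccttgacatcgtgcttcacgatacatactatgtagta
Gm29216, chr1:24616129-24616188, minus strand: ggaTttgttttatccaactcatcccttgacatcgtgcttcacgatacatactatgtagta
mt-Co2, chrM:7013-7072, plus strand: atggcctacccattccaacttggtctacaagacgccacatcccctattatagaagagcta
Gm28661, chr1:24615506-24615565, minus strand: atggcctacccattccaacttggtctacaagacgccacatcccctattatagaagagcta

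The gene counts had a gap where the copy lies. Of the 37 genes, 11 lay wholly within the copied span by position, and none of these exceeded 3 counts in any library. They were mt-Co2 and mt-Co3 (subunits of cytochrome c oxidase, complex IV), mt-Atp6 and mt-Atp8 (ATP synthase), mt-Nd3 and mt-Nd4l (complex I) and the 5 tRNA genes mt-Ts1, mt-Td, mt-Tk, mt-Tg and mt-Tr. In sum they had 13 counts over the 12 libraries, and 8 of the 11 were at 0 in every library. mt-Nd3 had 8 of these counts, mt-Tr 4 and mt-Atp6 1. The sequence of the chromosome 1 span between the annotated copies was not read here, so for the 5 tRNA genes and for most of mt-Atp8 only the position, not the identity of the bases, is given.

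The genes on either side of the span were far higher. mt-Co1, the catalytic core of complex IV, had 90637 to 148987 counts per library although its last 492 bases lie in the span. mt-Nd4, a complex I subunit of the proton-pumping arm, had 26776 to 44637 counts with 877 of its 1378 bases in the span. Among the genes outside the span, mt-Cytb, the only complex III subunit of this genome, reached 156900 counts, and the lowest protein-coding value was 4951, for mt-Nd6 in knockout 71. The share of 50-base windows of a gene that also occur in a nuclear transcript was 100% for mt-Co2, 99.9% for mt-Co3, 99.5% for mt-Atp6, 98.8% for mt-Nd4l and 98.0% for mt-Nd3. It was 62.2% for mt-Nd4, 51.1% for mt-Co1, 8.19% for mt-Nd2, 7.61% for mt-Nd5 and 1.04% for mt-Rnr2, and 0% for mt-Nd1, mt-Nd6, mt-Cytb and mt-Rnr1. It was also 0% for the 22 tRNA genes and for mt-Atp8, 6 of which lie in the span and are at or near 0 themselves. For these 6 the 0% does not show that no sequence is shared. Only annotated transcripts were searched, and mt-Atp8 matches Gm10925 over 43 bases, fewer than a window holds. The 5 genes with nearly all windows shared were at or near 0, and the part of shared sequence in the counts was not tested. How the authors treated reads with several matches, and how long the reads were, is not stated in the sources used here, so the window of 50 bases is a choice made for this comparison.

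**Figure D1:**
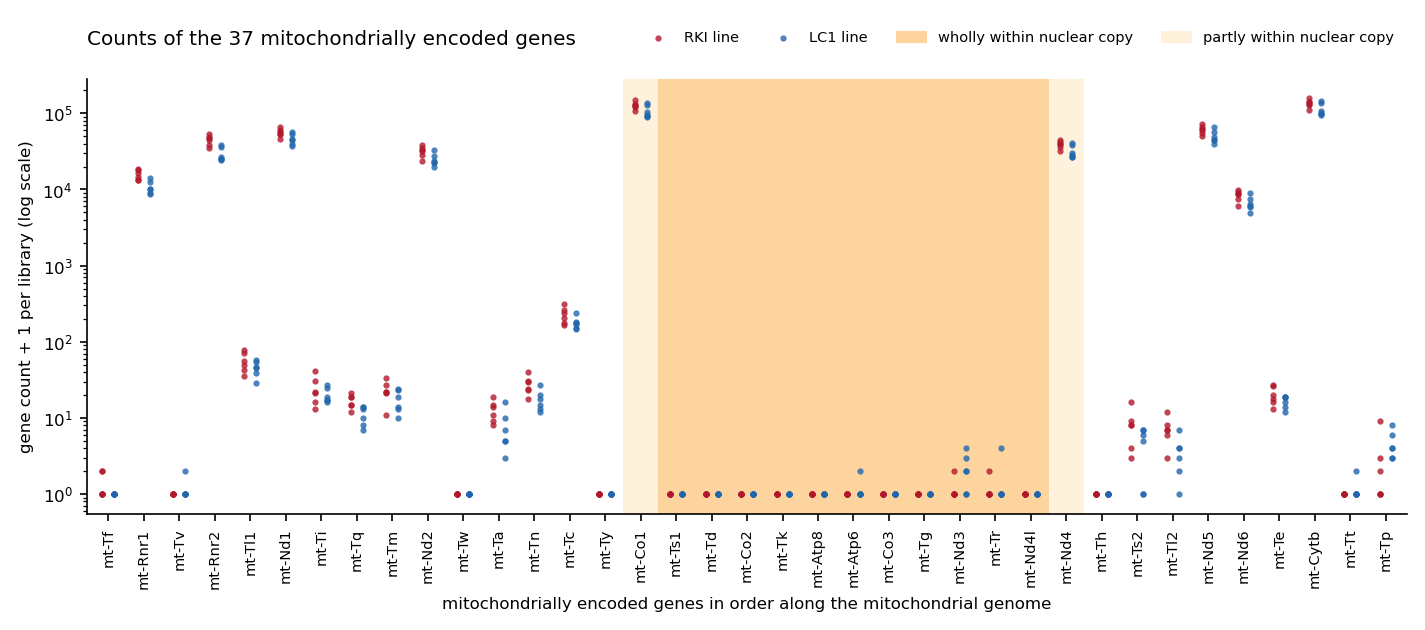
Gene count plus 1 on a log scale (y axis) for the 37 mitochondrially encoded genes in order along the mitochondrial genome (x axis), with 1 point per library, 6 RKI libraries left of 6 LC1 libraries, and shading for genes within the span copied on chromosome 1. The 11 genes wholly within the span stayed at 0 to 3 counts, while mt-Co1 and mt-Nd4, partly within it, had 26776 to 148987.

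The tRNA genes were low throughout, and their length of 59 to 75 bases and lack of a poly(A) tail set them apart from the mRNAs. Of the 17 outside the span, 3 were at 0 in every library (mt-Tw, mt-Ty and mt-Th) and 3 more (mt-Tf, mt-Tv and mt-Tt) never exceeded 3 counts. mt-Tc, the cysteine tRNA, was the highest, with 146 to 310 counts. It was followed by mt-Tl1, a leucine tRNA, with 28 to 77, and by mt-Ti, mt-Tq, mt-Tm, mt-Ta, mt-Tn and mt-Te, which lay between 2 and 40. mt-Ts2, mt-Tl2 and mt-Tp had 0 to 15 counts and missed the filter on low counts. These tRNAs lie against or across the ends of neighbouring genes, and the sources used here do not state whether counting used strand, so their counts cannot be separated from those of neighbouring and antisense transcripts. In all, 17 of the 37 genes passed the filter, 9 abundant ones and 8 tRNA genes, and a further 3 tRNA genes and 17 genes that never exceeded 3 counts did not.

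The deposited transcript table gave the copied genes another picture. It holds estimated counts, which need not be whole, from a tool that is not stated in the labels. The mitochondrial mt-Co2 transcript had a mean estimate of 443 and its copy Gm28661 137041, so that 99.7% ± 0.108 (SD, n = 12 libraries) of the pair's estimate stood on the nuclear copy. The same share was 99.2% ± 0.915 for mt-Nd3 and Gm28438, 96.7% ± 0.956 for mt-Co3 and Gm28437, and 88.5% ± 1.62 for mt-Atp8 and mt-Atp6 together with Gm10925. For mt-Co1 and Gm29216 it was 34.2% ± 1.90.

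For mt-Nd4l and mt-Nd4 it was 0% in each library, with mean estimates of 54147 and 100854 on the mitochondrial transcripts and none on Gm10222 and Gm28439. The copies of mt-Co2 and mt-Nd4l were both identical to the gene over the aligned bases, yet their estimates were split in opposite ways. mt-Co2 had 0 gene counts in all libraries, against a summed estimate of 137484 per library for gene and copy. For mt-Co3 the sum was 180299 against 0 gene counts, and for mt-Atp8 and mt-Atp6 it was 227243 against 0.0833 gene counts per library, all of them means over 12 libraries.

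**Figure D2:**
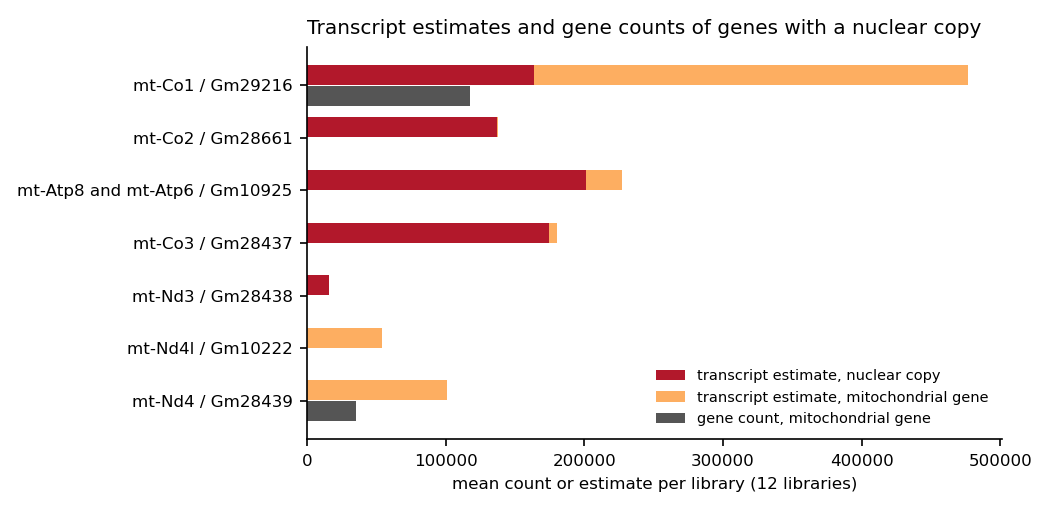
Mean per library (x axis, 12 libraries) of the estimated transcript counts on the nuclear copy and on the mitochondrial gene, stacked, above the gene count of the mitochondrial gene, for the 7 pairs (y axis). For mt-Co2, mt-Co3 and mt-Nd3 over 95% of the estimate stood on the copy, while for mt-Nd4l and mt-Nd4 all of it stood on the mitochondrial gene.

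With the copies added, the genes missing from the gene counts had sizeable estimates. On the scale of estimated CPM the pair sums were 5500 ± 1034 for mt-Co2, 7083 ± 992 for mt-Co3, 9066 ± 1723 for mt-Atp8 and mt-Atp6, 2112 ± 216 for mt-Nd4l and 634 ± 81.2 for mt-Nd3 (SD, n = 12). The mitochondrial share of the whole library was 1.87% to 2.44% of gene counts over 37 genes, and 1.73% to 2.24% of the counts of other genes once both ribosomal RNAs were left out. It was 3.10% to 3.82% of estimated transcript counts, where the table holds 13 mitochondrial transcripts, and 5.61% to 7.33% with the copies added.

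Levels between genes were compared per length and, for mt-Co1 and mt-Nd4, over the bases outside the copy. On the scale of CPM per kilobase outside the copy, mt-Co1 had 5043 ± 363 and mt-Cytb 4943 ± 362 (SD, n = 12 libraries here and for the following genes). Their ranges over the libraries overlapped, at 4616 to 5941 and 4465 to 5839. The genes share the libraries, and their order within a library was not tested. The copy left out here is the one on chromosome 1 alone. Of the 1496 windows of 50 bases in mt-Co1, 411 also occur in Gm13340 on chromosome 2 and 765 in any nuclear transcript, so its level rests on that choice of length. mt-Nd4 followed with 3213 ± 331 and mt-Nd1, a complex I subunit of the membrane arm, with 2427 ± 187. mt-Nd5 had 1379 ± 109, mt-Nd2 1236 ± 128 and the large ribosomal RNA mt-Rnr2 1055 ± 205, and the ranges of neighbours in this order overlapped over the libraries. Within each library, however, the deposited RPKM of mt-Nd5 was above that of mt-Nd2, least so in A1 with 1318 and 1315.

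The lowest were mt-Nd6 with 653 ± 70.1 and the small ribosomal RNA mt-Rnr1 with 627 ± 99.4 CPM per kilobase, which overlapped too. Over their full length mt-Co1 and mt-Nd4 had 3466 and 1170 CPM per kilobase, and the deposited RPKM gave the same picture, with means of 3458 for mt-Co1, 1168 for mt-Nd4 and 4932 for mt-Cytb, so their rank depends on how the copied part is treated. mt-Nd6 is the only mRNA of the light strand, and without a stated strand setting its counts cannot be separated from antisense transcripts. Oligo-dT selection also makes ribosomal RNA levels here a measure of what this selection retained. How much of the mt-Nd6 mRNA it retained was not tested.

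Gm28438 was the exception among the copies in the gene counts. It had 32 counts in A1, 21 in A10 and 29 in A18 of the RKI homozygous embryos, and 28 in A2, 25 in A9 and 14 in A16 of the RKI wild types. In the LC1 line it had 1 count in knockout 7 and 0 in knockouts 22 and 71, and 0 in wild types 6, 26 and 73. Each RKI library was thus above each LC1 library, with RKI embryos of both sexes and both genotypes alike, and the sums were 149 counts in the RKI line and 1 in the LC1 line.

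Scaled by library size, this was a ratio of 128 with an exact 95% interval of 22.6 to 5080, which covers counting error only. Between wild types the counts were 67 in RKI and 0 in LC1, at least 18.1-fold higher against a floor of 3 counts over the group, with an exact 95% lower limit of 14.3 for the ratio. Within the RKI line the homozygous embryos had 82 counts and the wild types 67, a ratio of 1.26 (0.903 to 1.77), which includes no difference. The gene was chosen with these values known, so they are a description. With 0 or 1 counts per LC1 library, Gm28438 entered the fit over all genes only through its RKI counts. There it was 1 of the 2 genes of 16002 (0.0125%) past the threshold between lines, which is a description as well. The other was Gabra2, a subunit of the GABA-A receptor, with 35.8 to 41.9 CPM in RKI libraries and 18.4 to 22.8 CPM in LC1 libraries.

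The 6 other copies had 0 to 5 counts per library and no such step, with 35 counts in the RKI line and 21 in the LC1 line over all 6. mt-Nd3 itself had 1 count in the RKI line, in A18, and 7 in the LC1 line, with 1 in knockout 7, 3 in knockout 22, 1 in wild type 6 and 2 in wild type 26, so its few counts stood mostly in the line where Gm28438 had 1. Gm28438 differs from the reference mt-Nd3 by T3C alone. This base of mt-Nd3 is known to vary between mouse substrains, with T in C57BL/6J, the strain of the reference, and C in other strains. All 12 embryos carry the label C57BL/6J, and the base they carry cannot be read from count tables, so its part in these counts was not tested.

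**Figure D3:**
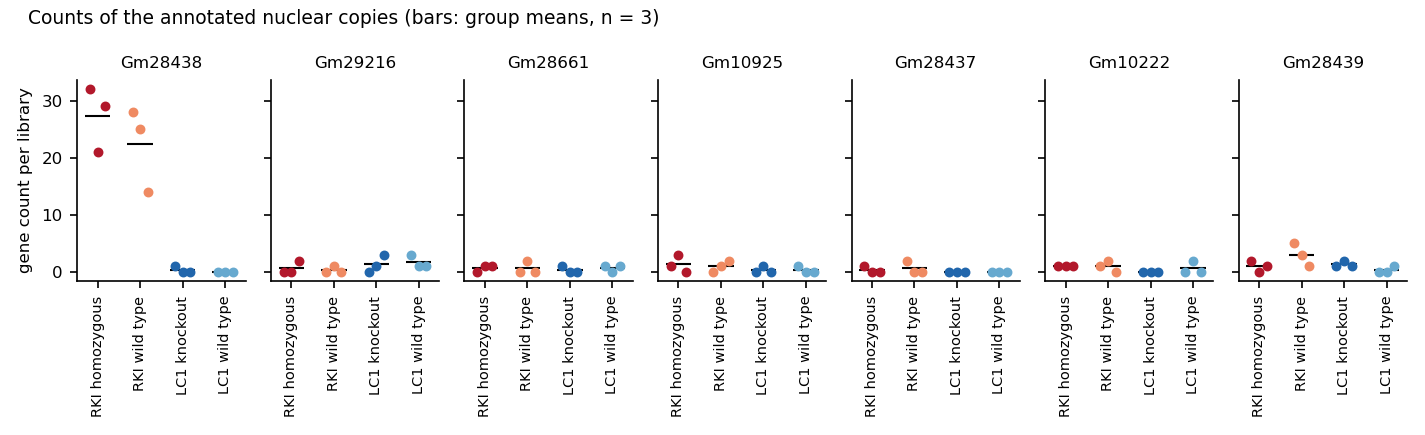
Gene count per library (y axis) of the 7 annotated nuclear copies in the 4 groups (x axis), with 1 point per embryo and a bar at the mean of 3. Gm28438 had 14 to 32 counts in the RKI libraries and 0 or 1 in the LC1 libraries, and the other 6 copies had 0 to 5 everywhere.

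The transcript estimates showed no step for Gm28438, with 13182 to 18649 in RKI libraries and 12226 to 21017 in LC1 libraries. The sum of mt-Nd3 and Gm28438 was 581, 562 and 608 estimated CPM in RKI homozygous embryos A1, A10 and A18 and 565, 585 and 547 in the RKI wild-type embryos A2, A9 and A16. It was 651, 720 and 572 estimated CPM in knockouts 7, 22 and 71 and 789, 726 and 706 in LC1 wild types 6, 26 and 73. Knockout 71 was the only LC1 library within the RKI range. The RKI line was at a log2 difference of -0.29 (SE 0.11) from the LC1 line, which did not pass (edgeR, adjusted p = 1, unadjusted p = 0.0291, over 47766 transcripts, of which 2, or 0.00419%, passed). None of the 12 mitochondrial values tested in this table passed between lines or in either genotype comparison (0% of transcripts in both genotype comparisons). Genes with a copy on chromosome 1 were summed with it, while mt-Nd1, mt-Nd2, mt-Nd5, mt-Nd6 and mt-Cytb stood alone.

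Deleting the LC1 element was the first of the genotype comparisons, and it asked whether the element affects gene levels in the embryonic brain. No mitochondrial gene passed the test in LC1 knockout against wild-type brains, and neither did any of the 16002 genes tested (0%), with an adjusted p under 0.05 in the quasi-likelihood test of edgeR and 334 genes at an unadjusted p under 0.05. DESeq2 also called none. All 9 abundant genes had a fitted value below 0, from -0.18 for mt-Rnr2 to -0.097 for mt-Nd2 on the log2 scale, with a median of -0.14 beside -0.0030 over all genes. Without the library of wild type 6, which had the highest level of all 9 in the LC1 line, 6 were below 0 and 3 above it, with a median of -0.023.

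mt-Rnr2 shows what these values rest on. It had 1333, 1420 and 1305 CPM in knockouts 7, 22 and 71, against 1902, 1357 and 1327 CPM in wild types 6, 26 and 73. Wild type 6 stood above the other libraries, which overlapped between the groups. mt-Nd4 had 1492, 1485 and 1455 CPM in the same knockouts and 2012, 1462 and 1525 CPM in the wild types, with a log2 fold change of -0.17 (SE 0.097, unadjusted p = 0.0929, edgeR adjusted p = 1). The knockouts lay close together, and wild type 26 lay among them.

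mt-Nd6, with the smallest unadjusted p of the 17 genes, had 320, 344 and 268 CPM in the knockouts and 375, 326 and 329 CPM in the wild types (log2 -0.14, SE 0.080, unadjusted p = 0.0866, edgeR adjusted p = 1). For all 9 abundant genes the groups overlapped. The other fitted values were -0.11 for mt-Nd1, -0.14 for mt-Nd5, -0.13 for mt-Cytb, -0.10 for mt-Co1 and -0.16 for mt-Rnr1. The 8 tRNA genes ranged from -0.62 for mt-Tm, with 9 to 23 counts per LC1 library, to 0.32 for mt-Tn, 4 of them above and 4 below 0. The authors' deposited table lists 25 mitochondrial genes for this comparison, of which 0 have an adjusted p under 0.05 and 10 an unadjusted one, the smallest at 0.00232. Among these 10 are all 9 abundant genes. The share over all genes of their table was not counted, so the 10 cannot be set against a background. In the edgeR fit used here, 0 of the 17 genes had an unadjusted p under 0.05.

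The share of all gene counts that was mitochondrial was 1.98%, 2.08% and 1.87% in knockouts 7, 22 and 71, against 2.44%, 2.01% and 2.04% in wild types 6, 26 and 73. The means were 1.98% ± 0.102 in knockouts and 2.16% ± 0.244 in wild types (SD, n = 3 each), a difference of -0.186 percentage points, and -0.0455 without wild type 6. The 95% Wilson interval of wild type 6, for counting error only, was 2.44% to 2.45%.

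Wild type 6 also had the highest summed level of microglia and macrophage markers, at 205 CPM against 151 to 169 CPM in the other LC1 libraries. All 12 markers of that list were found. Its 8 choroid plexus markers summed to 908 CPM against 653 to 753 CPM, and its 10 meningeal markers to 1413 CPM against 1007 to 1300 CPM. Its 8 neural markers were the highest of the line as well, at 5985 CPM against 5390 to 5762 CPM. Erythroid, endothelial and stress markers were highest in knockout 7 instead, with 2216 CPM of the 12 erythroid markers in knockout 7 and 1985 CPM in wild type 6. The part of these cell types in the mitochondrial values was not tested, and in bulk tissue fewer cells of a type and less RNA per cell cannot be told apart.

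**Figure D4:**
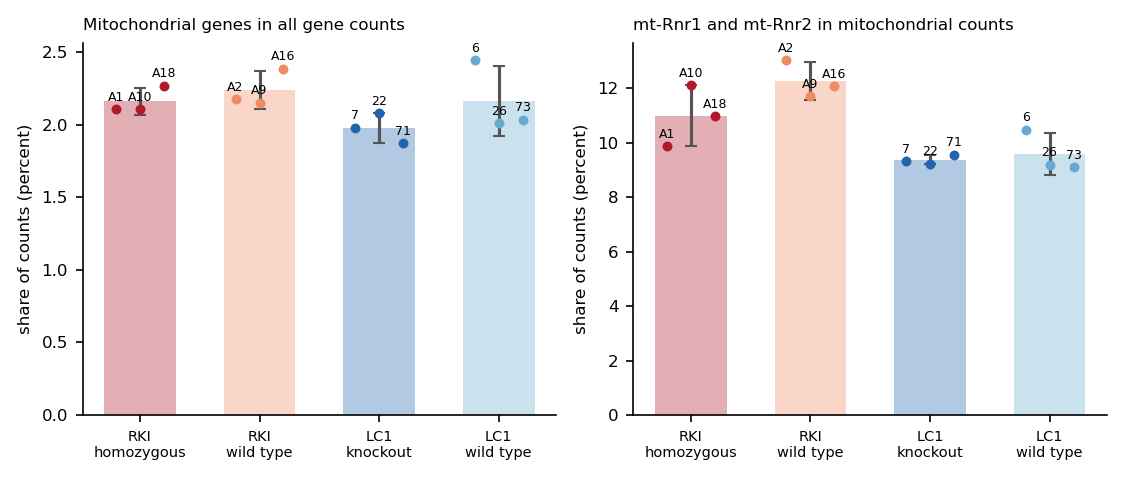
Percent of all gene counts from mitochondrially encoded genes (left) and percent of mitochondrial counts from mt-Rnr1 and mt-Rnr2 (right) in the 4 groups, with 1 point per embryo, bars at the mean and error bars of 1 SD (n = 3). Wild type 6 stands above the other LC1 libraries at 2.44%, and the ribosomal share is 9.87% to 13.03% in RKI and 9.12% to 10.5% in LC1 libraries.

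Nuclear genes of the same complexes also had small negative values in the LC1 comparison, and none passed. Of 36 nuclear complex I subunits 33 were below 0, with a median of -0.087, and Ndufs8, a subunit that carries iron-sulfur clusters, had -0.21 (SE 0.084). Of 9 complex III subunits 7 were below 0 (median -0.076), as were 9 of 11 complex IV subunits (median -0.047, with Cox7a2 at -0.21) and 12 of 13 tested ATP synthase subunits (median -0.078). The exception was Atp5g2, which encodes the membrane ring subunit c, at 1.56 ± 0.289 CPM in knockouts and 0.905 ± 0.406 CPM in wild types (SD, n = 3 each), a log2 value of 0.79 (SE 0.29, unadjusted p = 0.0145, edgeR adjusted p = 1). Complex II has no mitochondrial subunit, and 3 of its 4 genes were below 0 (median -0.043).

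Without wild type 6 these medians were 0.0088 for complex I, with 21 genes above and 15 below 0, 0.030 for complex II, 0.033 for complex III, 0.016 for complex IV and 0.023 for ATP synthase. Genes of mitochondrial transcription and replication (18 genes, median 0.019) and of mitochondrial RNA processing (25 genes, median 0.0063) were spread around 0 with all libraries in. So were the 74 tested proteins of the mitochondrial ribosome (median -0.024, 46 below 0).

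In the RKI line the comparison asked the same of the human variant, and the abundant mitochondrial mRNAs of homozygous and wild-type brains lay close together. No mitochondrial gene passed, and 0 of 16002 genes did (0%; 307 at an unadjusted p under 0.05), while DESeq2 also called 0. The values of the 7 abundant mRNAs ranged from -0.052 to 0.0020 on the log2 scale. The interval for mt-Co1 was -0.17 to 0.18, for mt-Cytb -0.19 to 0.15 and for mt-Nd1 -0.18 to 0.15, so changes of under about this size could not be seen. These intervals are not adjusted for the number of genes, and the adjusted threshold could miss larger changes too.

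The widest value among the abundant genes was that of mt-Rnr2, at -0.23 (SE 0.13, unadjusted p = 0.0896, edgeR adjusted p = 1.0). It had 1512, 1887 and 1834 CPM in homozygous A1, A10 and A18 and 2104, 1860 and 2179 CPM in the wild-type embryos A2, A9 and A16, and A10 lay above A9. mt-Rnr1 had 569, 656 and 690 CPM in the same homozygous embryos and 723, 679 and 663 CPM in the wild types, with -0.11 (SE 0.12). The tRNA genes ranged from -0.57 for mt-Tm to 0.62 for mt-Ta, 6 of 8 below 0. The authors' deposited table lists 23 mitochondrial genes for this comparison, with 0 at an adjusted p under 0.05 and 1, mt-Rnr2, at an unadjusted one. Here too the share over all genes of their table was not counted.

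The mitochondrial share was 2.11%, 2.11% and 2.27% in homozygous A1, A10 and A18 and 2.18%, 2.15% and 2.39% in the wild-type embryos A2, A9 and A16. The means of 2.16% ± 0.0918 in homozygous and 2.24% ± 0.129 in wild-type embryos (SD, n = 3 each) differed by less than the spread within the groups. Wild type A16, the highest of the line, also had the highest choroid plexus markers of the line, at 888 CPM against 737 to 803 CPM in the other RKI libraries. It was also highest in erythroid markers (1991 against 1027 to 1665 CPM), meningeal markers (1332 against 1111 to 1282 CPM) and stress markers, and lowest in neural markers (5138 against 5408 to 6000 CPM). The part of these markers was not tested. The nuclear lists had medians between -0.027 and 0.018, and no member passed. Polrmt, the mitochondrial RNA polymerase, had -0.068 (SE 0.067). Without A16 the medians were 0.037 for complex I, with 30 genes above and 6 below 0, and 0.045 for ATP synthase, with 12 above and 1 below. They were 0.050 for complex II, 0.026 for complex III, 0.041 for complex IV and 0.041 for the mitochondrial ribosome. Transcription and replication had 0.0099 and RNA processing 0.0059, beside 0.0024 over all genes.

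The difference between the RKI and LC1 effects was tested in the same fit. No mitochondrial gene passed and no gene of 16002 did (0%; 388 at an unadjusted p under 0.05). The 9 abundant genes ranged from -0.054 for mt-Rnr2 to 0.12 for mt-Nd6 with a median of 0.097. The smallest unadjusted p among them was 0.282, for mt-Nd6.

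**Figure D5:**
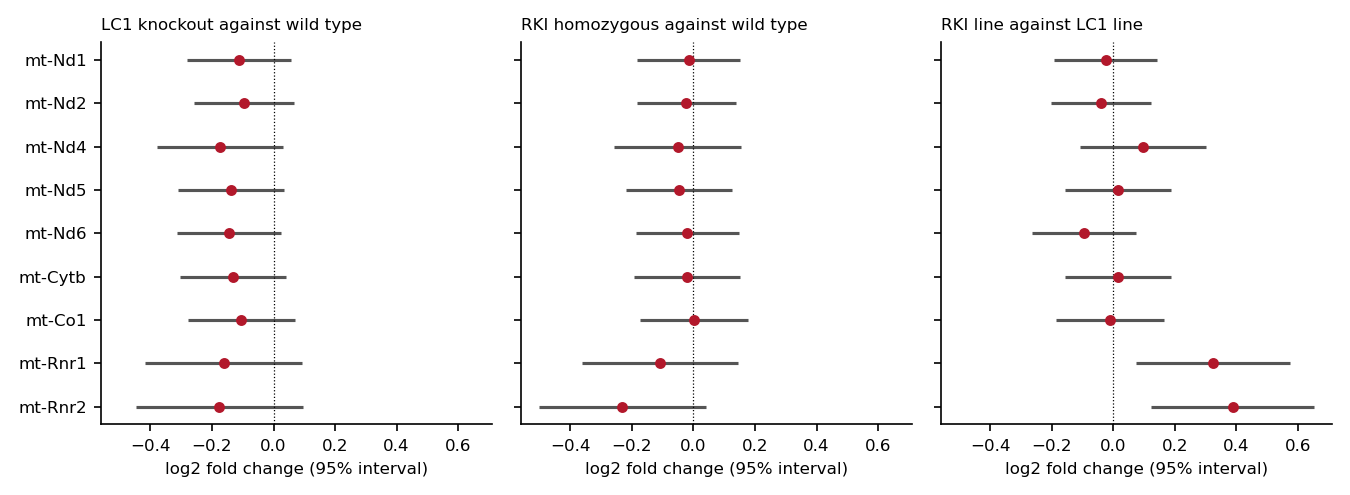
Fitted log2 fold change with its 95% interval (x axis) of the 9 abundant mitochondrial genes (y axis) for LC1 knockouts over their wild types (left), RKI homozygotes over theirs (middle) and RKI over LC1 libraries (right). Intervals of all 9 genes include 0 in both genotype comparisons, and between lines mt-Rnr1 and mt-Rnr2 lie at 0.32 and 0.39, with no adjusted p under 0.05.

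Between the lines the abundant mRNAs lay close together while both ribosomal RNAs were numerically higher in RKI brains. mt-Rnr2 averaged 1896 ± 235 CPM in RKI and 1441 ± 230 CPM in LC1 libraries (SD, n = 6 each), with a log2 fold change of 0.39 (SE 0.12, interval 0.12 to 0.65). mt-Rnr1 averaged 663 ± 51.8 CPM in RKI and 534 ± 84.3 CPM in LC1 libraries, with 0.32 (SE 0.12, interval 0.074 to 0.57).

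Neither passed over all genes (edgeR, adjusted p = 0.857 for both, unadjusted p = 0.00758 and 0.0149), and of all genes 5.67% had an unadjusted p under 0.05. The lines overlapped through wild type 6 alone. The other 5 LC1 libraries had 1305 to 1420 CPM of mt-Rnr2, and the 6 RKI libraries had 1512 to 2179 CPM. In females only the values were 0.39 for mt-Rnr2 and 0.33 for mt-Rnr1. All LC1 embryos were female, so the fit with a sex term already sets mainly A9 and A10 against them. The values in females are thus no separate check. Leaving out 1 embryo at a time, mt-Rnr2 ranged from 0.21 without A10 to 0.57 without A9, the female RKI embryos, and mt-Rnr1 ranged from 0.27 to 0.42. Without wild type 6 the values were 0.49 and 0.42 (edgeR adjusted p = 0.110 for both). Without a filter on low counts, over 27458 genes, both genes passed with nearly the same fold changes (edgeR adjusted p = 1.91e-07 for mt-Rnr2 and 4.01e-04 for mt-Rnr1). The lower p thus reflects the estimate of spread, which then also draws on genes with hardly any counts. More genes passed in that setting in both genotype comparisons and between lines, so these p-values are not read as support.

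The 7 abundant mRNAs ranged from -0.096 for mt-Nd6 to 0.095 for mt-Nd4 between lines in the fit with the sex term. These fitted values rest mainly on the RKI females A9 and A10. For mt-Nd6, mt-Nd2, mt-Nd1 and mt-Co1 they were below 0, although the mean over all libraries of a line was higher in RKI. It was 351 CPM in RKI and 327 CPM in LC1 for mt-Nd6, and 1345 and 1220 CPM for mt-Nd2 (fitted -0.041). mt-Nd4, mt-Nd5 and mt-Cytb were higher in RKI by both, and the lines overlapped for each gene. As a share of mitochondrial counts, a measure chosen after these values were seen, the 2 ribosomal RNAs made up 9.87%, 12.1% and 11.0% in homozygous A1, A10 and A18 and 13.03%, 11.7% and 12.1% in the RKI wild-type embryos A2, A9 and A16. They made up 9.33%, 9.23% and 9.56% in knockouts 7, 22 and 71 and 10.5%, 9.20% and 9.12% in LC1 wild types 6, 26 and 73. Only A1 and wild type 6 overlapped. The female RKI embryos A9 and A10 were above all 6 LC1 females. The 74 mitochondrial ribosome proteins had a median of -0.046 in the same comparison, 56 below 0 and none past the test.

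The mitochondrial share of counts did not separate the lines. It was 2.11% to 2.39% in RKI and 1.87% to 2.44% in LC1 libraries. With wild type 6 left out, the LC1 libraries ended at 2.08%, below each RKI library.

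Sex differed within the RKI line only, and no mitochondrial gene passed between male and female embryos, where 8 of 16002 genes did (0.05%). mt-Nd6 and mt-Nd2 had the smallest unadjusted p among the 17 tested, both complex I subunits. mt-Nd6 had 373, 374, 363 and 387 CPM in the males A1, A18, A2 and A16, against 301 and 311 CPM in the RKI females A10 and A9. mt-Nd2 had 1367, 1467, 1370 and 1498 CPM in these males and 1171 and 1200 CPM in these females. Males and females of the RKI line did not overlap for either gene, but the LC1 females reached 375 CPM of mt-Nd6 and 1364 CPM of mt-Nd2. The log2 values were 0.29 (SE 0.085, unadjusted p = 0.00311) and 0.27 (SE 0.082, unadjusted p = 0.00469), with an edgeR adjusted p of 0.890 for both, and 5.18% of all genes had an unadjusted p under 0.05.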

How the data were processed

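The deposited count table gives whole-number counts per gene for 12 libraries. Per the submitters' processing notes, the tools were featureCounts 1.4.5, Subread, STAR 2.0.4b, limma and edgeR, with no role stated for any. Genome build, annotation release, strand setting, read length and transcript tool are not stated in those notes. The authors also deposited RPKM per gene, estimated counts per transcript made before deposit by a tool that is not named, which were rounded here before testing, and tables of their own comparisons with log2 fold changes and p-values. The authors' RKI table gives wild type minus homozygous, and its sign was turned here.

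Of 41264 rows 1 per identifier was kept. The test was edgeR's quasi-likelihood test (edgeR 4.0.16, R 4.3.3; TMM, filterByExpr by group, robust) in 1 fit of 12 libraries with 4 group means and sex, with 7 residual degrees of freedom and Benjamini-Hochberg adjustment at 0.05 over 16002 genes. CPM were scaled by TMM. The procedure was tested on simulated data. Nothing says beyond the embryo names that libraries are independent of litter, so p-values measure the spread between these embryos. DESeq2 1.42.0, total-count scaling and the other alternatives are in the closing part. Copies were aligned with Biopython 1.88 on the GENCODE M21 transcripts (GRCm38).

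The members and gene lists were chosen with earlier results of these data known. For this reason no p is given for shares summed over the genes, although an exact permutation test had been planned. All mitochondrial genes are named or counted; of each nuclear list only genes among the 3 with the smallest p were named.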

Additional observations from a re-analysis of the deposited data

Results flagged for a closer look

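Among the 6 libraries of the LC1 line, that of wild-type embryo 6 stood far above the rest in 7 measures, which were the only ones that stood out among 22 combinations of measure and line, when its gap to the next library was set against the range of the line. Chance flags about 1 in 20 such groups of samples, and these measures share their counts. Its mitochondrial share was 2.44%, with the next library at 2.08%, and its ribosomal share of mitochondrial counts was 10.5%, with the next at 9.56%. mt-Rnr1 stood at 699.8 CPM with the next library at 540 CPM, mt-Rnr2 at 1902 against 1420, mt-Nd4 at 2012 against 1525, mt-Co1 at 6310 against 5305 and mt-Cytb at 6679 against 5587. No library of the RKI line stood apart in this way in these measures. The report gives the LC1 values that rest on this library with and without it.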

How the results depend on the processing

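No paired analysis was possible because the groups share no embryo numbers and the labels name no litters. Of 760 log2 values of single genes under alternative settings, 707 kept their direction and side of the threshold, 51 changed sign and 2 passed only without the filter, the values of mt-Rnr2 and mt-Rnr1 between lines given above; no changed sign belongs to a value past the threshold, and the cause was not tested. The call of Gm28438 between lines held in all alternatives run, but the gene was chosen with its counts known, so this is a description and no support.

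Without the filter, 4 genes passed in the LC1 comparison, 26 in the RKI comparison and 34 between lines. Between lines 4 passed with DESeq2 and 5 in females only. Leaving out 1 embryo at a time gave 0 genes in LC1, 0 to 2 in RKI and 2 to 5 between lines (5 without A10); in RKI 1 passed without A1, and 2 without A9 or without A10. The LC1 difference in mitochondrial share was -0.639 percentage points and the RKI difference 0.110 with copies added to the transcript estimates, against -0.186 and -0.0773 in gene counts. These shares have unlike bases. As log2 ratios the LC1 values were -0.149 with copies and -0.130 in gene counts, and the RKI values 0.0254 and -0.0507.

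Leaving out 1 embryo at a time, the LC1 value ranged from -0.27 to 0.021 for mt-Rnr1, -0.27 to 0.011 for mt-Rnr2, -0.41 to 0.038 for mt-Ti, -0.99 to 0.37 for mt-Ta, -0.037 to 0.078 for mt-Tc and -0.16 to 0.0042 for mt-Co1. The RKI value ranged from -0.059 to 0.033 for mt-Nd1, -0.62 to 0.20 for mt-Ti, -0.28 to 0.045 for mt-Tq, -0.061 to 0.014 for mt-Nd2, -0.042 to 0.047 for mt-Co1, -0.050 to 0.0040 for mt-Nd6, -0.15 to 0.40 for mt-Te and -0.060 to 0.020 for mt-Cytb. The line value ranged from -0.053 to 0.020 for mt-Nd1, -0.39 to 0.65 for mt-Tn, -0.52 to 0.21 for mt-Tc, -0.040 to 0.049 for mt-Co1, -0.014 to 0.059 for mt-Nd5, -0.25 to 0.71 for mt-Te and -0.047 to 0.086 for mt-Cytb.

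Without the sex term the line values draw on the RKI males as well. They were then 0.074 for mt-Tl1, 0.058 for mt-Nd1, 0.029 for mt-Ti, 0.14 for mt-Nd2, 0.13 for mt-Tc, 0.026 for mt-Co1 and 0.11 for mt-Nd6. With the sex term kept, the values between wild types of the lines were -0.030 for mt-Nd5 and -0.041 for mt-Cytb. mt-Ta in LC1 was -0.037 with DESeq2, and mt-Co1 in RKI -0.0073 with total-count scaling and -0.0013 with the 6 libraries of the line alone. The ribosomal share, the lists without wild type 6 or A16 and the sums with copies were chosen after seeing the data.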
